A study of Homo sapiens with 12 samples.

Results

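The response of HGC-27 cells to SAHA was measured in 6 of the 12 small RNA libraries of the series, chosen by their labels: 3 from cells given 5 µM SAHA for 24 h and 3 from cells given only the solvent DMSO for the same time. HGC-27 is an established human gastric cancer line, grown in RPMI 1640 with fetal bovine serum, and the labels name no genetic change in any group. The other 6 libraries hold the same treatments in AGS, a second gastric cancer line, and enter here only through the shared estimate of spread and a closing comparison. The labels number the replicates from 1 to 3 without saying whether they were separate cultures, so the p-values measure only the spread between these libraries, which may be technical.

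SAHA (vorinostat) blocks histone deacetylases, so acetyl groups stay on histones and many silent genes become transcribed. MicroRNAs are cut from hairpins in longer transcripts, often several from 1 transcript. Each hairpin gives a 5p and a 3p arm, of which one is usually kept as the guide and the other mostly degraded, and the guide finds its messenger RNAs mainly through its seed, bases 2 to 8 from its 5′ end. In gastric cancer, microRNAs of the miR-17 to miR-92a cluster are known as growth promoters and relatives of miR-34a and miR-449a as brakes on the cell cycle.

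Total counts lay between 3331650 and 6525388 per HGC-27 library, with 23.7% to 28.5% of annotated counts in miR-21-5p. One library of each group stood apart. HGC-27 SAHA 2 lay at -19.6 on the first principal component, against -0.95 and -5.26 for its replicates, and held most of several tissue-restricted microRNAs: miR-9-5p, known from neurons, at 2658 CPM (counts scaled by edgeR to a common library size, with TMM factors) against 72.8 and 236 CPM in SAHA libraries 1 and 3, and miR-451a, known from red blood cells, at 397 against 44.1 and 75.2 CPM. HGC-27 DMSO 1 held miR-1-3p, a microRNA of striated muscle, at 1035 CPM, where DMSO libraries 2 and 3 held 6.78 and 4.82 CPM. The same library had miR-143-3p, known from smooth muscle and fibroblasts, at 1010.0 CPM against 80.9 and 71.7 CPM. Results that rest on HGC-27 SAHA 2 are given with and without it, and the closing section gives the calls with both libraries left out.

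The sequences below are those on which the results turn, as RefSeq gives them on GRCh38.p14, written 5′ to 3′ with the seed in capitals. The first set rose with SAHA, apart from miR-34a-5p and miR-215-5p, which are shown because they share a seed with microRNAs that rose:
miR-7-5p: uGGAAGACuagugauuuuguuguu
miR-192-5p: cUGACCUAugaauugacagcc
miR-215-5p: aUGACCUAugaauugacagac
miR-194-5p: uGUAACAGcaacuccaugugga
miR-449a: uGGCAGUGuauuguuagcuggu
miR-449b-5p: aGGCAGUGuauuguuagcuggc
miR-449c-5p: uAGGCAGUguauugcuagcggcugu
miR-34a-5p: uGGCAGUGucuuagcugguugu
miR-184: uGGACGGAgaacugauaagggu
miR-891a-5p: uGCAACGAaccugagccacuga
miR-218-5p: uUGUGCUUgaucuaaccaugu
miR-129-5p: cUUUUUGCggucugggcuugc

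The second set shows the seeds shared by the abundant microRNAs that fell, together with miR-363-3p, which shares a seed with miR-92a-3p but rose, and miR-30e-5p, whose fall was not called:
miR-17-5p: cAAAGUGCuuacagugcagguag
miR-20a-5p: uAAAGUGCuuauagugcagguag
miR-93-5p: cAAAGUGCuguucgugcagguag
miR-106b-5p: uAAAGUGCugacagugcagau
miR-92a-3p: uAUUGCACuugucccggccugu
miR-25-3p: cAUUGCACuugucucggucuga
miR-363-3p: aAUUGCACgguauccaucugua
miR-30a-5p: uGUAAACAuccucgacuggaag
miR-30e-5p: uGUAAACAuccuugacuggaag

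With SAHA, 248 of the 608 microRNAs tested changed (40.8%), 132 higher (21.7%) and 116 lower (19.1%), in edgeR's quasi-likelihood test at a Benjamini-Hochberg adjusted p under 0.05. Rises outnumbered falls among rare microRNAs, and falls outnumbered rises among abundant ones. Of the 78 microRNAs at 1000 CPM or more, 9 rose and 32 fell, with a median log2 fold change of -0.20, and of the 210 under 10 CPM 52 rose and 16 fell, with a median of 0.37. Over all 608 the median was 0.08. A rise of 2-fold or more was called for 95 microRNAs and a fall of that size for 36. Of these, 4 rises and 1 fall were at 1000 CPM or more. The balance of directions depended on the scaling: with plain totals in place of TMM every median moved up, by 0.12 over all 608, and 223 were called (36.7%), 144 higher and 79 lower.

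**Figure D1:**
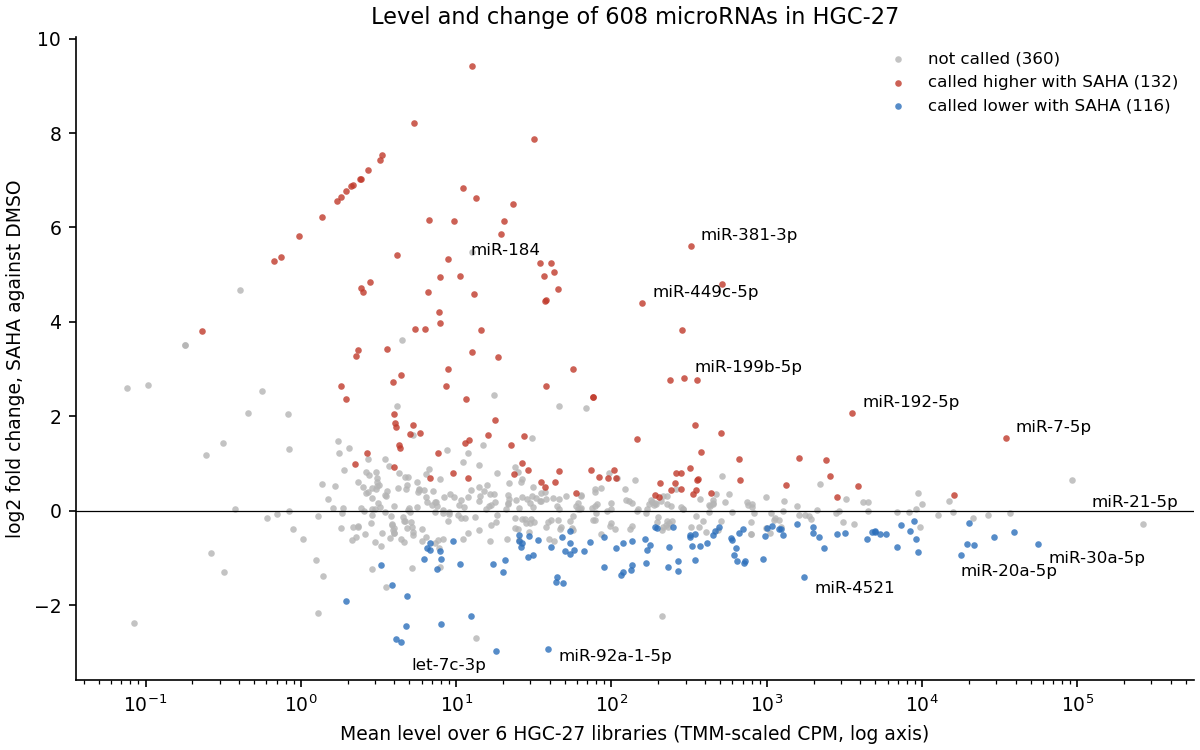
Log2 fold change of SAHA against DMSO in HGC-27 (y axis) for the 608 microRNAs tested, against their mean level over the 6 libraries in TMM-scaled CPM (log x axis); red points were called higher (132), blue points lower (116), grey points were not called. Large rises lie mostly at low levels, while miR-7-5p and miR-192-5p stand out among the abundant microRNAs.

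As a share of the tested counts, the 132 microRNAs called higher took 10.6% to 11.7% of the SAHA libraries and 4.61% to 4.88% of the DMSO libraries. A single member, miR-7-5p, made up 4.92%, 5.19% and 5.65% with SAHA and 1.5%, 1.72% and 1.76% with DMSO. The 116 called lower took 25.7% to 27.0% with SAHA and 35.1% to 37.6% with DMSO. These shares describe sets chosen by the same test and carry no test of their own.

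Of the 132 higher calls, 104 were also called higher without HGC-27 SAHA 2, and 72 of the 116 lower calls were also called lower. In all 6 fits that left out 1 HGC-27 library each, 79 were called higher (13%) and 65 lower (10.7%). Calls that held in all 6 are named stable below.

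Among abundant microRNAs the stable rises were led by miR-7-5p, which restrains growth factor signalling through EGFR and is best known from neurons and endocrine cells. It stood at 49905, 49312 and 54584 CPM in SAHA libraries 1, 2 and 3 and at 14499.6, 19893 and 18661 CPM in the DMSO libraries (log2 fold change 1.54 ± 0.14, SE, adjusted p = 2.57e-05). The groups did not overlap, as for 57.9% of all microRNAs tested. The same mature sequence is made from more than 1 hairpin, so the locus that gave the rise cannot be read from it. The opposite arm of the hairpin in HNRNPK on chromosome 9 (chr9:83969748-83969857), miR-7-1-3p, lay at 81.8 to 96.8 CPM with SAHA and at 108 to 131 CPM with DMSO (-0.40, adjusted p = 0.0587).

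The gut epithelial pair miR-192 and miR-194, made from 1 transcript on chromosome 11 (chr11:64891137-64891439), rose with all 3 of its tested arms. miR-192-5p was at 5582, 5659 and 5781 CPM with SAHA and at 1734, 1269 and 1081 CPM with DMSO. miR-194-5p was at 571, 503 and 537 CPM with SAHA and at 209, 113 and 133 CPM with DMSO. Their log2 fold changes were 2.06 ± 0.34 and 1.82 ± 0.24 (adjusted p = 8.8e-04 and 2.06e-04). Both were clear of overlap, as were 57.9% of all microRNAs tested. miR-215-5p, which shares the seed of miR-192-5p, made up little of their summed level, which went from 1544 ± 468 to 5903 ± 352 CPM (SD, n = 3).

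The miR-449 cluster lies in an intron of CDC20B, a gene of multiciliated cells, on chromosome 5 (chr5:55170532-55172353), and its 3 tested members all rose. miR-449c-5p was at 298, 296 and 313 CPM with SAHA and at 12, 16.6 and 14.3 CPM with DMSO (no overlap, as for 57.9% of all tested). miR-449a reached 35.9, 28 and 36.5 CPM from 2.46, 4.27 and 3.66 CPM, and miR-449b-5p reached 12.8, 6.82 and 10.9 CPM from less than 1 CPM in each DMSO library. Their log2 fold changes were 4.40 ± 0.21, 3.26 ± 0.43 and 3.84 ± 0.59 (adjusted p = 2.35e-07, 2.06e-04 and 0.00102).

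The seeds put these rises in proportion. miR-449a and miR-449b-5p share GGCAGUG with the far more abundant miR-34a-5p, which fell from 607, 774 and 781 CPM with DMSO to 460.3, 466 and 474 CPM with SAHA (-0.63 ± 0.11, adjusted p = 0.00144). Summed over the 3 microRNAs, the level of this seed fell from 779 ± 99.5 to 521 ± 23.0 CPM in the fit by seed (-0.58 ± 0.11, adjusted p = 0.00191), and it also fell with plain totals (adjusted p = 0.0322) and without HGC-27 SAHA 2 (adjusted p = 0.0392). miR-449c-5p begins 1 base earlier in the printed sequences and so has the shifted seed AGGCAGU. Neither it nor miR-34c-5p of the same family is in that sum, so the fall is not one of the whole family. The sum covers only microRNAs with a sequence used here and may not be complete for this seed. For miR-34c-5p, absence from the sum does not show a different seed. Summed over all listed miR-34 and miR-449 members, the level was 808, 823 and 840 CPM with SAHA. With DMSO it was 624, 795 and 801 CPM, and the difference in this family sum was not tested.

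Other stable rises came from single genes. miR-184, known from neurons and the eye, stood at 76.9, 77.9 and 82.7 CPM with SAHA and at 0.491, 0.753 and 4.63 CPM with DMSO (5.24 ± 0.60, adjusted p = 9.15e-05). miR-199b-5p, a microRNA of mesenchymal cells, stood at 497, 513 and 525 CPM with SAHA and at 77.3, 72.8 and 70.2 CPM with DMSO (2.80 ± 0.17, adjusted p = 1.29e-06). In both the SAHA libraries lay close together and far above every DMSO library.

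miR-139-5p and miR-139-3p, from an intron of the phosphodiesterase gene PDE2A, rose together, miR-139-5p to 526, 910.0 and 431 CPM from 91.8, 95.4 and 88.5 CPM (2.76 ± 0.27 and 3.37 ± 0.39, adjusted p = 3.51e-05 and 1.05e-04). miR-328-3p, at 292, 629 and 326 CPM with SAHA and 59.4 to 62.8 CPM with DMSO, rose as well (2.77 ± 0.39, adjusted p = 3.18e-04). HGC-27 SAHA 2 was the highest library for both, and without it their log2 fold changes were 2.44 and 2.40. miR-769-5p stood at 756 to 802 CPM with SAHA and at 156 to 293 CPM with DMSO (1.65 ± 0.21, adjusted p = 1.82e-04), and these 3 hairpins were named after their values were seen.

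**Figure D2:**
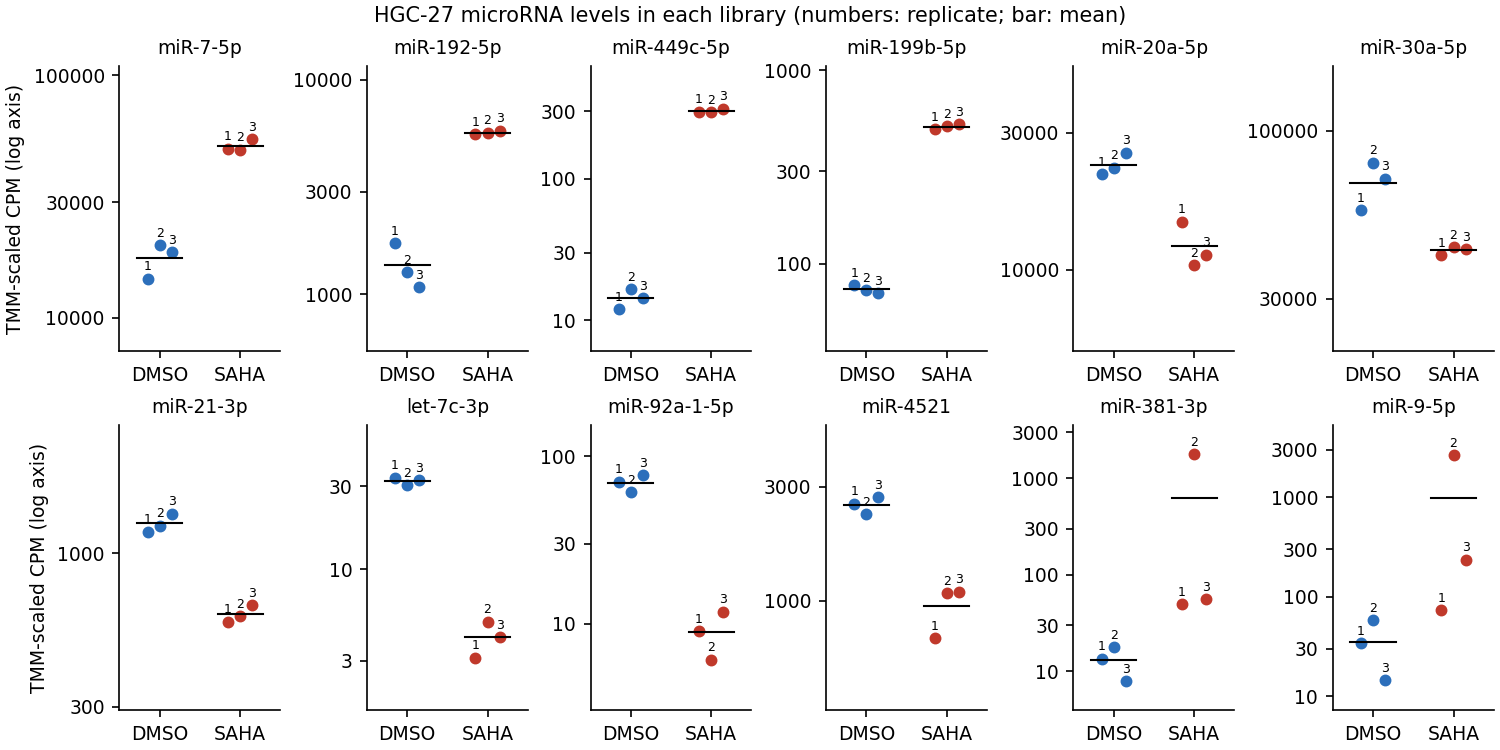
Level of 12 microRNAs in each HGC-27 library in TMM-scaled CPM (log y axes, each with its own range), DMSO in blue and SAHA in red; digits give the replicate and the bar the mean. The panels of miR-7-5p, miR-192-5p, miR-449c-5p and miR-199b-5p show 3 SAHA libraries close together above DMSO, whereas miR-381-3p and miR-9-5p have SAHA library 2 far above the other two.

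The falls included abundant guides that share seeds. The 6 microRNAs of the miR-17 group, which share the seed AAAGUGC and restrain the cell cycle inhibitor CDKN1A (p21), were all tested and all called lower, with a median log2 fold change of -0.86 (19.1% of all microRNAs tested were lower, and 32 of the 78 at 1000 CPM or more). The most abundant, miR-20a-5p, was at 14704, 10416 and 11289 CPM with SAHA and at 21512, 22686 and 25537 CPM with DMSO (-0.94 ± 0.16, adjusted p = 9.35e-04). Summed over every listed microRNA with this seed, the level went from 46468 ± 3339 to 24592 ± 2738 CPM (-0.92 ± 0.13, adjusted p = 3.69e-04). Without HGC-27 SAHA 2, and with plain totals, 5 of the 6 were called lower (11.3% and 13% of all tested). miR-106b-5p was the exception in both.

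The 6 microRNAs belong to 3 loci that the transcription factor MYC activates, and of the 21 tested members of these loci 16 fell and 1 rose (median -0.53). Without HGC-27 SAHA 2, 10 fell and 1 rose, and 10 and 1 were the counts with plain totals too. Of all microRNAs tested 19.1% fell, 11.3% without HGC-27 SAHA 2 and 13% with plain totals. Several members are arms of 1 hairpin or neighbours on 1 transcript and are not independent. The member that rose was miR-363-3p, a rare one of the locus on the X chromosome. It stood at 3.17 to 5.74 CPM with SAHA and at 0, 1.26 and 0 CPM with DMSO (3.27 ± 0.95, adjusted p = 0.0187). It was not stable, and its seed AUUGCAC is shared with miR-92a-3p, miR-25-3p, miR-92b-3p and miR-32-5p, whose joint level fell from 45156 ± 698 to 28598 ± 1192 CPM (-0.66 ± 0.08, adjusted p = 8.84e-05). Within this seed miR-32-5p, which is not of the 3 loci, was itself called higher (0.67, mean 361 CPM over the HGC-27 libraries).

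Within the chromosome 13 locus in MIR17HG (chr13:91350605-91351391) the falls were uneven. Of 10 tested arms, 7 fell, whereas miR-19a-3p stayed within its spread, at 434 to 532 CPM with SAHA and 379 to 495 CPM with DMSO (0.16 ± 0.16, adjusted p = 0.447). miR-17-3p and miR-18a-3p were not called (-0.39 and -0.32, adjusted p = 0.126 and 0.327). The largest fall was that of miR-92a-1-5p, at 9.06, 6.10 and 11.8 CPM with SAHA and 70.5, 60.8 and 76.6 CPM with DMSO (-2.93 ± 0.28, adjusted p = 3.51e-05).

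Several other abundant guides fell. miR-30a-5p, the third in level with DMSO behind miR-21-5p and miR-148a-3p, was at 41071, 43396 and 42705 CPM with SAHA and at 56634, 79598 and 70970.2 CPM with DMSO (-0.70 ± 0.12, adjusted p = 0.00107). The summed level of miR-30a, miR-30c and miR-30e, which share the seed GUAAACA, went from 84591 ± 12033 to 51121 ± 3715 CPM (-0.73 ± 0.11, adjusted p = 4.06e-04). miR-30b-5p and miR-30d-5p, for which no sequence was used, are not in that sum. On the log2 scale miR-100-5p fell by 0.57, miR-10a-5p by 0.71 and miR-92a-3p by 0.73. The groups of these 3 did not overlap, as for 57.9% of all microRNAs tested.

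The let-7 seed GAGGUAG, the largest guide pool after that of miR-21-5p in HGC-27 with DMSO, showed a smaller shift that depended on the scaling. Its summed level was 150231 ± 11321 CPM with DMSO and 119342 ± 8768 CPM with SAHA (-0.33 ± 0.08, adjusted p = 0.00539), and it missed the threshold with plain totals (-0.13, adjusted p = 0.106) and without HGC-27 SAHA 2 (-0.20, adjusted p = 0.179). Its members moved unequally: let-7e-5p fell by 0.79 and let-7b-5p by 0.60, both stable, let-7i-5p fell by 0.45, a call that was not stable, and let-7g-5p was at 35741 to 37328 CPM with SAHA and 33544 to 40102 CPM with DMSO (-0.05, adjusted p = 0.695).

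The 2 most abundant microRNAs were not called. miR-21-5p was at 255050.0, 225611 and 236443 CPM with SAHA and at 262220.0, 330441 and 275756 CPM with DMSO (-0.28 ± 0.10, adjusted p = 0.0548). miR-148a-3p, a microRNA of gut and liver, was at 127936, 104393 and 104261 CPM with SAHA and at 55589, 91217 and 66984 CPM with DMSO (0.65 ± 0.40, adjusted p = 0.225). The groups did not overlap for either, as for 352 of the 608 microRNAs tested (57.9%).

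Taking seeds as the unit, 202 of 450 seed families were called (44.9%), 102 higher (22.7%) and 100 lower (22.2%). Of the 57 families with at least 2 tested names, 6 rose and 29 fell, and in 7 the members were called in both directions. The rises were those of miR-192-5p, miR-146b-5p, miR-132-3p, miR-199a-3p, miR-129-2-3p and miR-509-3-5p with their relatives. miR-199a-3p and miR-199b-3p have nearly the same counts, so their family may count the same reads under both names. The miR-129-2-3p family was at 2.74, 62.1 and 6.24 CPM in SAHA libraries 1, 2 and 3. miR-509-3-5p had a mean of 1.95 CPM with SAHA and 0 with DMSO, so it passed the filter on low counts only through other groups. miR-146a-5p and miR-146b-5p, which dampen inflammatory signalling, went from 250.1 ± 37.5 to 609 ± 143 CPM in sum (1.28 ± 0.21, adjusted p = 6.88e-04). The number of families called lower was 84 with the scaling of the fit per microRNA (192 calls in all, 42.7%) and 55 with plain totals (176 calls, 39.1%).

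Hairpins with both arms measured show how far a change ran through the whole hairpin. Both arms were tested for 177 hairpins, with hairpins that give the same pair of mature names counted once, and a guide made from several hairpins entering with each of its partner arms. The more abundant arm was called higher in 41 and lower in 47, the less abundant in 28 and 49. Both arms were called in 48 hairpins, in the same direction in 46, of which 27 were lower and 19 higher. Of the 47 hairpins whose more abundant arm fell, 30 had the less abundant arm at a more negative log2 fold change, against 105 of all 177. The median difference over the 177, less abundant minus more abundant arm, was -0.12.

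**Figure D3:**
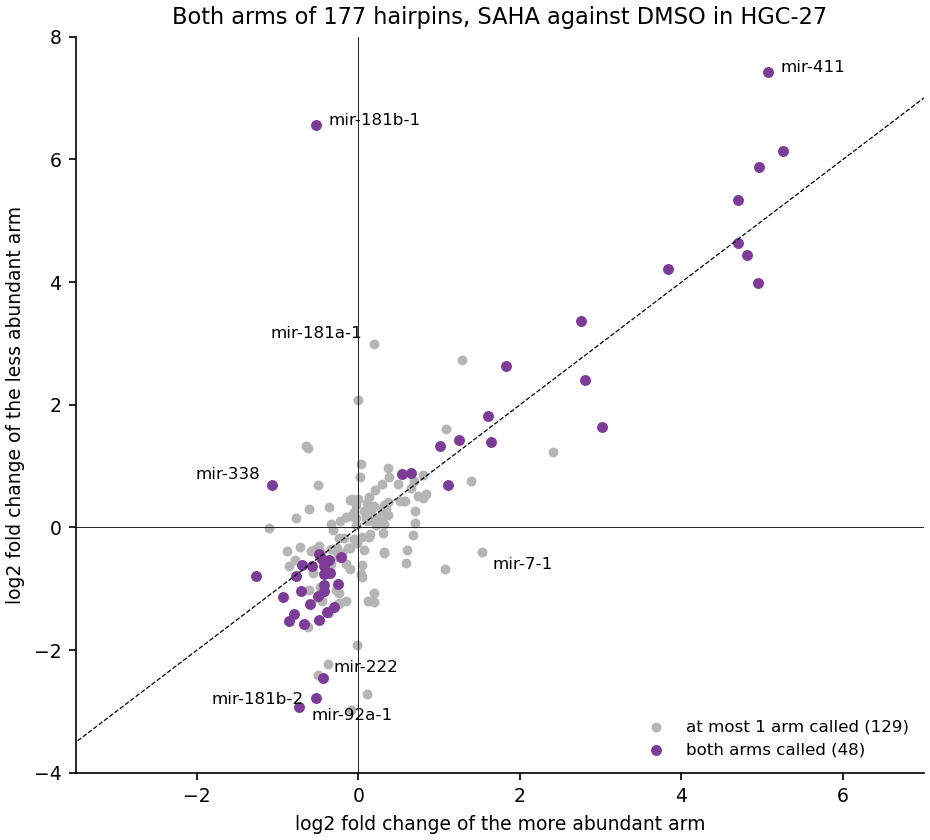
Log2 fold change of the less abundant arm (y axis) against that of the more abundant arm (x axis) for the 177 hairpins with both arms tested; purple points had both arms called (48), grey points at most 1, and the dashed line marks equal change. In mir-181b-1 and mir-338 the arms were called in opposite directions.

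The 2 hairpins whose arms are shown whole below had contrasting patterns, mir-92a-1 with both arms lower by very unequal amounts and mir-338 with its arms moving apart. Capitals mark the 2 mature arms, 5p first, as RefSeq gives them on GRCh38.p14 for chr13:91351314-91351391 on the plus strand and chr17:81125883-81125949 on the minus strand:
mir-92a-1: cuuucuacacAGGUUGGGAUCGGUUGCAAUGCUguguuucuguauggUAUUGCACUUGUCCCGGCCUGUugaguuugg
mir-338: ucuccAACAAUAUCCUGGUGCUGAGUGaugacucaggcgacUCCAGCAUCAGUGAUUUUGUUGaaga

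For mir-92a-1 the log2 ratio of the 5p to the 3p arm was -8.50, -8.81 and -8.47 in the DMSO libraries and -10.67, -11.22 and -10.44 in the SAHA libraries, with 0.5 CPM added to each arm. The mature miR-92a-3p has a second hairpin on the X chromosome, so its smaller fall is that of both loci together. mir-338 lies in an intron of AATK, and its 5p arm fell from 982, 909.9 and 1027 to 501, 430.3 and 463 CPM (-1.07 ± 0.10, adjusted p = 3.51e-05), while its 3p arm rose from 86.7, 75.1 and 83.9 to 141, 137 and 119.9 CPM (0.69 ± 0.15, adjusted p = 0.00348). Both calls were stable, and the log2 ratio of 3p to 5p went from -3.49, -3.59 and -3.61 to -1.83, -1.65 and -1.95.

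miR-21-3p, the passenger of the most abundant guide, fell from 1180.4, 1238 and 1362 to 585, 611 and 666 CPM (-1.02 ± 0.09, adjusted p = 2.49e-05). The passenger let-7c-3p dropped from 33.6, 30.4 and 32.6 to 3.12, 5.02 and 4.08 CPM (-2.98 ± 0.22, adjusted p = 6.56e-06), whereas its guide let-7c-5p was at 954 to 2508 CPM with SAHA and 1558 to 1726 CPM with DMSO (-0.09, adjusted p = 0.832). In both hairpins the passenger groups lay far apart and the guide was not called.

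Where 1 guide is made at 2 places, the other arm can differ in sequence and so tells the loci apart. The miR-181 guides are the case in point, and the sequences show which letters separate the arms of the chromosome 1 locus (miR-181a-3p and miR-181b-3p) from those of the chromosome 9 locus (miR-181a-2-3p and miR-181b-2-3p), with the shared guide miR-181a-5p first and seeds in capitals:
miR-181a-5p: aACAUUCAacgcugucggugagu
miR-181a-3p: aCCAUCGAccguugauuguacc
miR-181a-2-3p: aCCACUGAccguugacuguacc
miR-181b-3p: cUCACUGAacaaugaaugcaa
miR-181b-2-3p: cUCACUGAucaaugaaugca

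The arms of the chromosome 1 locus in MIR181A1HG (chr1:198858873-198859153) rose and those of the chromosome 9 locus in MIR181A2HG (chr9:124692442-124693798) fell. miR-181a-3p was at 81.9, 118 and 101 CPM with SAHA and at 15.0, 12.6 and 10.2 CPM with DMSO (2.99 ± 0.21, adjusted p = 4.77e-06). miR-181a-2-3p was at 193, 152 and 178 CPM with SAHA and at 389.9, 371 and 335 CPM with DMSO (-1.07 ± 0.13, adjusted p = 1.53e-04). The shared guide miR-181a-5p was at 1297 to 1543 CPM with SAHA and 1196 to 1221 CPM with DMSO and was not called (0.20 ± 0.11, adjusted p = 0.188).

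The miR-181b arms followed the same split. miR-181b-3p was at 3.12, 3.23 and 3.85 CPM with SAHA and listed in no DMSO library, at least 4.93-fold higher against a floor of 3 counts per library (adjusted p = 0.001). miR-181b-2-3p fell from 101 counts in the DMSO libraries to 11 in the SAHA libraries (-2.77 ± 0.45, adjusted p = 8.04e-04), and the shared guide miR-181b-5p fell by 0.52 (adjusted p = 0.00228). All 4 calls at the passenger arms were stable.

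Other pairs of loci differed less cleanly. miR-16-1-3p, from DLEU2 on chromosome 13, fell by 2.23 and miR-16-2-3p, from SMC4 on chromosome 3, by 0.68 on the log2 scale. miR-29b-1-5p, from chromosome 7, had a log2 fold change of -2.71 (adjusted p = 0.024, not stable), and miR-29b-2-5p, from chromosome 1, of 0.11 (adjusted p = 0.748). The differences within these pairs were not tested.

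Neighbouring hairpins tended to be called in 1 direction. Hairpins on 1 strand, tested or not, were chained into a group where the gap to the next was at most 10000 bases. There were 46 groups with 2 or more tested hairpins, holding 203 microRNAs. Of these groups, 38 had a call and 31 had at least 2. In 12 of these 31 the calls were all higher, in 16 all lower, and in 3 in both directions. Arms of 1 hairpin and neighbours on 1 transcript share their source and are not independent.

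**Figure D4:**
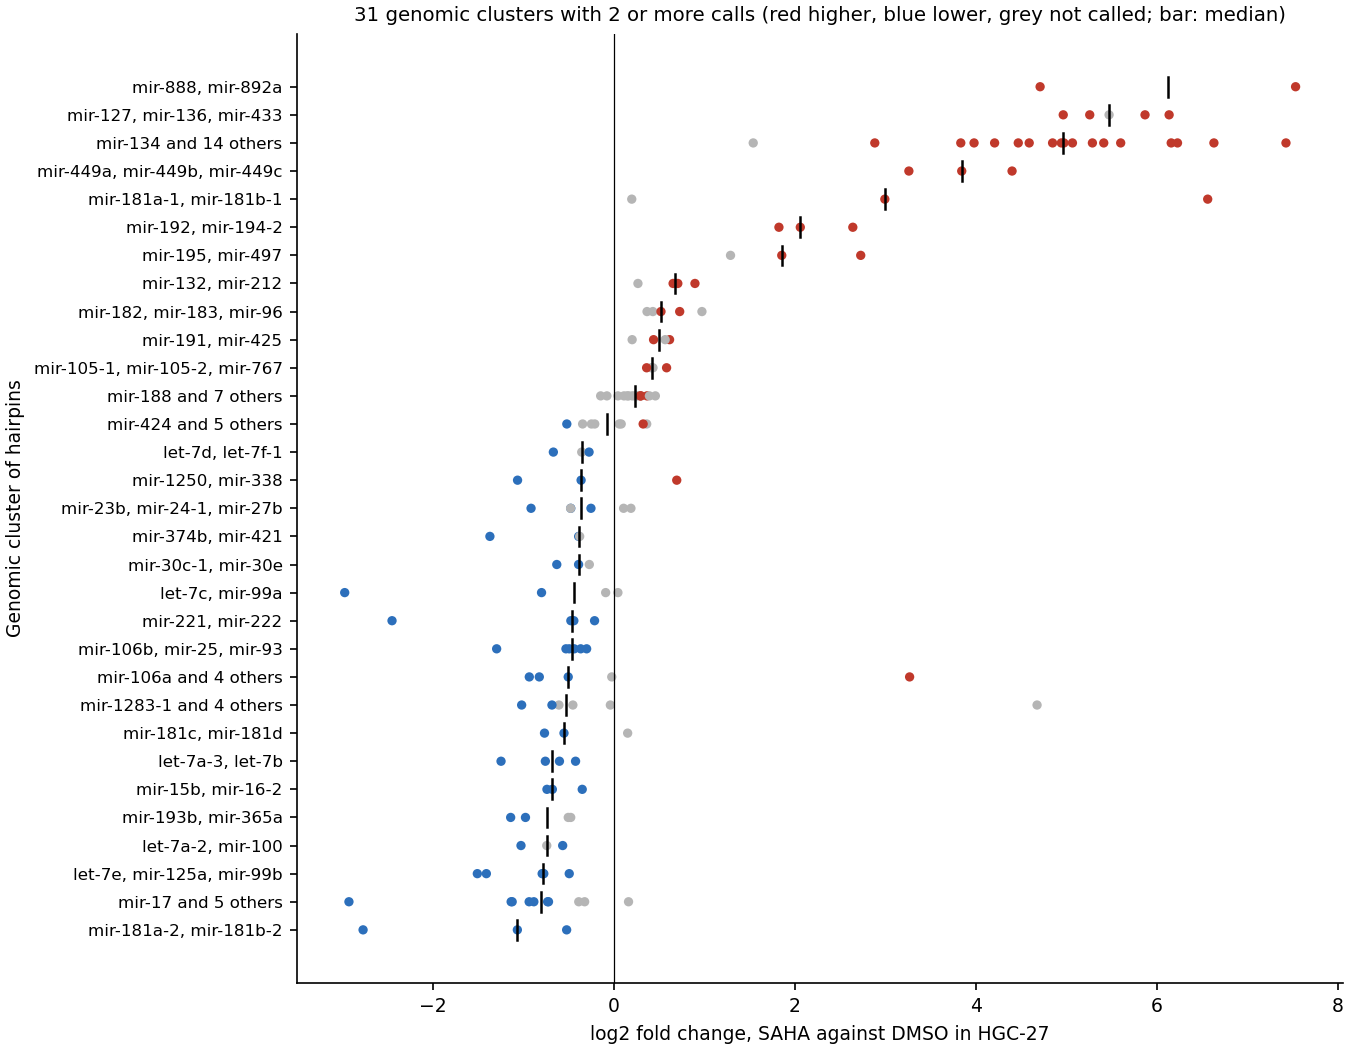
Log2 fold change of SAHA against DMSO in HGC-27 for each tested microRNA (points) in the 31 groups of neighbouring hairpins with 2 or more calls, ordered by median (bar); red points were called higher, blue lower, grey not called. The 16 groups with only lower calls have medians between -1.07 and -0.36, and the rising groups reach a median of 6.12.

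Several falling groups were called along their whole length. All 6 tested arms of let-7e, miR-99b and miR-125a in SPACA6 (chr19:51692612-51693339) fell, by 0.49 to 1.51 on the log2 scale, 5 of them also without HGC-27 SAHA 2. All 6 of miR-106b, miR-93 and miR-25 in an intron of the replication gene MCM7 (chr7:100093560-100094074) fell by 0.30 to 1.30, but only 2 were called without HGC-27 SAHA 2. All 4 of miR-221 and miR-222, which restrain the cell cycle inhibitor CDKN1B, fell, and 1 was called without that library.

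Among the rising groups, miR-132 and miR-212, which are also on the neuronal list, had 3 of 4 arms higher (1 without HGC-27 SAHA 2), miR-195 and miR-497 2 of 3, and miR-182, miR-183 and miR-96 2 of 5, with miR-183-5p at 4605, 4308 and 4692 CPM against 3048, 3247 and 3196 CPM (0.52 ± 0.09, adjusted p = 0.00127). By position in GENCODE 29, 139 tested microRNAs lay between genes and 40 of them rose and 11 fell. Of the 350 in introns of host transcripts 75 rose and 73 fell, and of the 118 in exons 17 and 32. The shares over all 608 tested were 21.7% higher and 19.1% lower. Outside chromosome 14, 36 of the 130 between genes rose and 11 fell. Positions were not counted without HGC-27 SAHA 2.

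Of 19 tested neuronal and neuroendocrine microRNAs, 16 were higher and 0 lower with all libraries, with a median log2 fold change of 4.44 (21.7% of all microRNAs tested were higher, with a median of 0.08). Without HGC-27 SAHA 2, 10 were called higher with a median of 2.26, and 8 were stable. Of the 16, 6 had at most 3 counts per DMSO library on average, so they passed the filter on low counts only through other groups and their calls say nothing about the list; of the 13 members above that level 10 were higher. In RNA pooled from many cells, more cells of a type and more RNA per cell cannot be told apart.

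miR-218-5p, made from introns of the axon guidance genes SLIT2 and SLIT3, was at 203, 1214 and 182 CPM with SAHA and at 37.6, 41.9 and 33.4 CPM with DMSO (3.82 ± 0.69, adjusted p = 0.00135). miR-129-5p was at 36.6, 182 and 41.5 CPM with SAHA and at 3.44, 4.27 and 2.31 CPM with DMSO (4.69 ± 0.62, adjusted p = 2.15e-04). For both, SAHA libraries 1 and 3 also lay above every DMSO library, and without SAHA 2 the log2 fold changes were 2.41 and 3.61 (adjusted p = 1.09e-04 and 4.23e-06).

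Other calls ended without HGC-27 SAHA 2. miR-383-5p was listed at 57.1 CPM there, at 0 in both other SAHA libraries and at 0.737 CPM in DMSO 1, and its log2 fold change of 6.14 (adjusted p = 0.0461) became -2.88 without that library (adjusted p = 0.471). miR-136-5p stood at 0.937, 112 and 1.13 CPM with SAHA and at 0.386 to 0.982 CPM with DMSO, and its value went from 5.87 to 0.79 (adjusted p = 0.71). miR-127-3p and miR-411-5p lost their calls as well (1.32 and 1.33, adjusted p = 0.416 and 0.315), and miR-138-5p, at 1.25, 73.2 and 1.36 CPM with SAHA and listed in no DMSO library, missed the threshold with an adjusted p of 0.0544. Its SAHA libraries 1 and 3 were still above every DMSO library, but at a few counts each: 3 counts there correspond to 0.94 and 0.68 CPM.

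Among the 94 higher calls with at least 10 CPM with SAHA, HGC-27 SAHA 2 held 3 or more times the median SAHA library for 27, and 16 of these 27 lie on chromosome 14. Without this library 13 of the 27 were still called higher. In the larger chromosome 14 group (chr14:101022066-101065991), part of the imprinted DLK1-DIO3 region, 17 of 18 arms were called higher with all libraries and 10 without SAHA 2, and the median went from 4.96 to 2.39. miR-494-3p of this group had like levels in all SAHA libraries, 7.50, 8.61 and 7.48 CPM, against 0.491, 1.00 and 1.54 CPM with DMSO (2.88 ± 0.61, adjusted p = 0.00371).

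**Figure D5:**
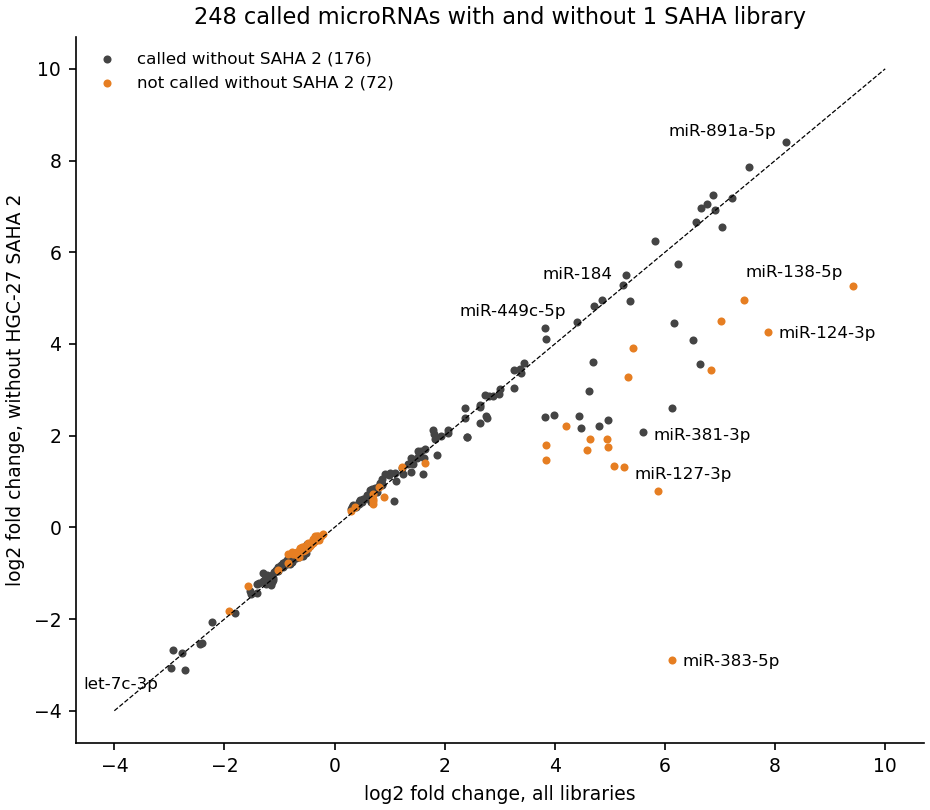
Log2 fold change without HGC-27 SAHA 2 (y axis) against that with all libraries (x axis) for the 248 microRNAs called; dark points were also called without that library (176), orange points were not (72), and the dashed line marks equality. miR-891a-5p, miR-184 and miR-449c-5p lie on the line, while miR-127-3p, miR-138-5p and miR-383-5p lie far under it.

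Sums of marker lists, here and below, cover every list member in the deposited counts, tested or not. The summed levels of markers of fibroblasts and smooth muscle, of blood cells, and of muscle and liver were each highest in HGC-27 SAHA 2 or DMSO 1. This did not hold for every marker: the called miR-199b-5p and miR-144-5p were highest in HGC-27 SAHA 3. With miR-199a-3p and miR-199b-3p counted once, as their counts are nearly the same, 2 of 7 tested markers of fibroblasts and smooth muscle were higher (miR-199a-3p and miR-199b-5p), with and without HGC-27 SAHA 2. The share called higher over all microRNAs tested was 21.7%, and 17.1% without that library. Calls in either direction made up 40.8% with all libraries. miR-199a-5p was not called (1.23, adjusted p = 0.39). The median of the 7 was 0.80, and -0.75 without SAHA 2, and the summed level was 715 to 2279 CPM with SAHA and 1197, 174 and 164 CPM with DMSO. Of 6 tested blood cell markers 1 was higher with and without SAHA 2, miR-144-5p (list median 0.51, and -0.60 without), with sums of 70.6, 474 and 116 CPM against 112, 278 and 62.1 CPM. Of 5 tested muscle and liver markers 0 were called (1 higher with plain totals), with sums of 98.4, 359 and 207 CPM against 1164, 52.0 and 37.2 CPM. miR-223-3p of myeloid cells and miR-206 of muscle were too low to be tested, and the part of other cells' RNA in the rises was not tested.

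Markers of the epithelial state did not separate the groups: 0 of 9 tested were called (40.8% of all tested). The sum over the 12 in the deposited counts was 2121 to 2426 CPM with SAHA and 2183 to 2321 CPM with DMSO. The sum was mostly miR-203a-3p (1542 to 1951 CPM over the 6 libraries). Of the miR-200 family, which keeps cells epithelial, miR-200b-3p lay at 166 to 333 CPM, miR-200a-3p at 57.8 to 168 CPM, miR-200c-3p at 67.8 to 121 CPM, miR-429 at 7.14 to 25.0 CPM and miR-141-3p at 1.00 to 5.16 CPM. Both tested endothelial markers, miR-126-3p and miR-126-5p from EGFL7, were higher, and 1 of the 2 was called without HGC-27 SAHA 2. The share called higher over all microRNAs tested was 21.7% (17.1% without that library). miR-126-3p was at 2158, 2635 and 1824 CPM with SAHA against 1144, 1050.0 and 866 CPM with DMSO (1.11 ± 0.24, adjusted p = 0.00418).

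X-linked microRNAs of testis and epididymis appeared from near nothing. Of 26 on the list 7 passed the filter on low counts, and 5 of them were higher. The 21 members in the deposited counts, tested or not, summed to 37.8, 23.0 and 34.0 CPM with SAHA against 0, 0 and 0.386 CPM with DMSO. A microRNA this low with DMSO could pass the filter only through levels in other groups, so the count of 5 in 7 says nothing about the list. miR-891a-5p stood at 12.5, 8.61 and 11.1 CPM with SAHA and in no DMSO library, at least 15.6-fold higher (adjusted p = 4.22e-05). miR-892a, at 8.44, 3.95 and 7.70 CPM, was at least 9.71-fold higher (adjusted p = 5.3e-04). In all, 17 of the 132 higher calls were listed in no DMSO library.

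Among microRNAs that p53 raises in many cell types, 12 were tested, 4 were higher and 1 lower, with and without HGC-27 SAHA 2 (21.7% higher over all tested). Their median log2 fold change was 1.15, and 0.61 without that library. The 4 were miR-192-5p, miR-194-5p, miR-194-3p and miR-1246, at 259, 184 and 205 CPM against 86.2, 74.8 and 66.9 CPM (1.51 ± 0.15, adjusted p = 3.61e-05), whereas miR-34a-5p, the best known of the list, fell. miR-1246 can also arise from a spliceosomal small nuclear RNA, a source that the counts do not separate.

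Of 11 tested microRNAs that target DNA methyltransferases, EZH2 or HDAC1, 1 was higher (miR-449a, which targets HDAC1) and 1 lower (miR-26b-5p, -0.46, adjusted p = 0.0188, not stable), with a median of 0.10. miR-29a-3p (0.19), miR-101-3p (0.00) and miR-26a-5p (-0.02) were not called. Of 10 tested microRNAs of hypoxia, inflammation and endoplasmic reticulum stress 5 were higher and 2 lower (3 and 2 without HGC-27 SAHA 2). Over all microRNAs tested, 21.7% were higher and 19.1% lower (17.1% and 11.3% without that library). Of the 5, 1 had at most 3 counts per DMSO library on average. It passed the filter on low counts only through other groups, and its call says nothing about the list. miR-210-3p, the main hypoxia microRNA, was at 383, 332 and 353 CPM with SAHA and 205, 199 and 209 CPM with DMSO (0.80 ± 0.15, adjusted p = 0.00217).

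The response differed from that of AGS, by the test of the difference itself, for 11 of 608 microRNAs (1.81%), 5 with a higher log2 fold change in HGC-27 (0.822%) and 6 with a lower one (0.987%). miR-7-5p fell in AGS, where it was at 15353 to 17128 CPM with SAHA and 17849 to 25101 CPM with DMSO, so that the log2 fold changes differed by 1.95 (adjusted p = 5.82e-04). miR-195-3p, at 7.81, 5.74 and 6.80 CPM with SAHA and 0.491, 1.76 and 0.771 CPM with DMSO in HGC-27, was the other with opposite calls in the lines (difference 4.11, adjusted p = 0.01). miR-19a-3p fell in AGS (-0.96) and not in HGC-27 (difference 1.13, adjusted p = 0.0263).

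In the other direction, both arms of miR-1247, from the DIO3 antisense transcript, fell in HGC-27 by 1.53 and 0.86 and were not called in AGS (0.18 and 0.44), differences of -1.71 and -1.30 (adjusted p = 0.00271 and 0.0263). miR-1247-3p was at 24.4, 21.9 and 28.3 CPM with SAHA and at 86.2, 63.0 and 66.5 CPM with DMSO in HGC-27. miR-135b-3p fell in HGC-27 from 115, 129 and 130.0 to 62.2, 49.2 and 51.2 CPM (-1.20) and lay at 5.62 to 8.03 CPM in all AGS libraries (difference -1.45, adjusted p = 0.00827). miR-216b-5p was at 2.51 to 4.69 CPM with SAHA and in no DMSO library in HGC-27, at least 5.67-fold higher, and at 4.68 to 16.9 CPM in all AGS libraries. For the other microRNAs a difference was not called, which does not show that the lines responded alike.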

How the data were processed

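Small RNA was sequenced from HGC-27 and AGS cells, with TRIzol extraction and a NEBNext small RNA kit per the labels' protocols. The submitters' processing notes name cutadapt and Novoalign 2.07.11; no source used here gives the genome build, the microRNA release or the counting rule. What the authors deposited was a table of read counts per hairpin and mature name, and beside it normalized values, entered here as a score because they are rounded to whole numbers, with column sums of 983286 to 991838; the deposited scores were used only in the limma alternative. Blank cells were read as 0; the smallest listed count was 2. Of 2909 entries, 860 predicted ones were left out, and for the 111 mature names with more than 1 hairpin the hairpin with the highest total was used.

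Counts of all 12 libraries entered 1 quasi-likelihood fit in edgeR 4.0.16 (R 4.3.3) with 4 group coefficients, 8 residual degrees of freedom, TMM scaling and edgeR's filter on low counts, which left 608 microRNAs. P-values were adjusted by Benjamini-Hochberg over all of them and called under 0.05. Errors beside log2 fold changes are standard errors and beside CPM values SDs over 3 libraries. The difference between lines was tested as an interaction contrast. Counts summed by seed, over names with a sequence only, were fitted the same way with their own scaling. Alternatives used DESeq2 1.42.0, limma 3.58.1 on log2 of value plus 1, plain totals, other filters and fewer libraries; the seed fit with the scaling per microRNA was added after seeing the data. On data simulated for HGC-27 microRNAs (577 tested), 48.94% of changes of 1 and 86.73% of changes of 2 on the log2 scale were recovered.

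Positions and host genes came from GENCODE 29 (607 of 608 matched) and sequences from RefSeq on GRCh38.p14 (540 of 608). Floors and intervals cover counting error only. The groups, lists and microRNAs described were chosen with earlier results of these data known. MicroRNAs were named by level, size and stability of change, dependence on HGC-27 SAHA 2, contrast between arms, difference from AGS, and membership of the lists. The miR-181, miR-338, miR-139, miR-328, miR-769, miR-16-2, miR-29b, miR-21-3p, miR-494 and let-7e or let-7b values outside these were chosen after they were seen.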

Additional observations from a re-analysis of the deposited data

Results flagged for a closer look

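The change with SAHA differed between HGC-27 and AGS for 11 microRNAs in edgeR's test of the interaction term (Benjamini-Hochberg adjusted over 608). Differences are HGC-27 minus AGS in log2 fold change. Higher in HGC-27 were miR-7-5p by 1.95 (adjusted p = 5.82e-04), miR-195-3p by 4.11 (adjusted p = 0.01), miR-216b-5p by 6.10 (adjusted p = 0.0105), miR-27a-5p by 1.10 (adjusted p = 0.0105) and miR-19a-3p by 1.13 (adjusted p = 0.0263). The value for miR-216b-5p depends on the prior count, since no HGC-27 DMSO library listed it.

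Lower in HGC-27 were miR-1247-3p (-1.71, adjusted p = 0.00271), miR-135b-3p (-1.45, adjusted p = 0.00827), miR-516a-5p (-1.07, adjusted p = 0.0112), miR-1247-5p (-1.30, adjusted p = 0.0263), miR-30a-3p (-0.51, adjusted p = 0.0288) and miR-676-3p (-1.85, adjusted p = 0.0472). miR-676-3p rose in both lines, by 1.58 in HGC-27 and 3.43 in AGS. miR-516a-5p was at 74.3 to 83.8 CPM with SAHA and 75.6 to 85.0 CPM with DMSO in HGC-27, and rose by 1.03 in AGS. miR-27a-5p was at 927 to 1208 CPM with SAHA and 849 to 919.7 CPM with DMSO in HGC-27 (0.30, not called), and fell by 0.80 in AGS. The causes of these differences were not tested.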

How the results depend on the processing

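Leaving out each HGC-27 library in turn gave 163 to 210 calls in place of 248 (89 to 124 higher, 73 to 88 lower), and leaving out HGC-27 SAHA 2 and DMSO 1 together gave 146 (84 higher, 62 lower). For seed families, leaving out each library gave 127 to 166 calls in place of 202, 48 to 64 of them lower in place of 100; 55 were lower with plain totals and 62 with no filter on low counts. The differences from AGS numbered 11 in the main fit, 31 with DESeq2 and 2 to 20 without 1 library (2 without HGC-27 DMSO 3, 20 without AGS DMSO 3). Same-numbered HGC-27 libraries had r = -0.32, -0.01 and 0.07 between their deviations, and libraries of unlike number -0.31 to 0.38. With 3 libraries per group these values cannot show whether the numbers pair the libraries. A fit with the replicate number as a block gave 164 calls (91 higher, 73 lower), 148 seed families and 1 difference from AGS. The log2 fold change of let-7g-5p, -0.05 and not called, was 0.021 with the HGC-27 libraries alone, 0.071 with plain totals, 0.025 with at least 10 CPM in 3 libraries, 0.035 with hairpins summed, and -0.11 to 0.021 without 1 library. That of miR-383-5p, 6.14, ranged from -2.88 without SAHA 2 to 8.95 without DMSO 1. DESeq2 called 247, DESeq2 size factors 249, no filter 249, hairpins summed 240, limma 197 and the HGC-27 libraries alone 276. Of the 76 results compared, 72 kept direction and call with plain totals and 64 without HGC-27 SAHA 2. Depth limits the microRNAs under 10 CPM, where 1 library can decide a call. The causes of these changes were not tested.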

Other observations

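Some further microRNAs also rose in HGC-27. miR-95-3p was at 981, 859 and 874 CPM with SAHA and at 348, 478 and 451 CPM with DMSO (1.09, edgeR adjusted p = 2.06e-04). miR-22-3p was at 1757, 1515 and 1465 CPM against 1168, 1024 and 1081 CPM (0.53, edgeR adjusted p = 0.0014), and miR-105-5p, from an intron of GABRA3 on the X chromosome, at 260.0, 219 and 257 CPM against 164, 167 and 161 CPM (0.58, edgeR adjusted p = 9.95e-04). In each the groups did not overlap, as for 57.9% of all microRNAs tested. miR-128-3p, from R3HDM1 and counted on the neuronal list, was at 2331, 5317 and 2151 CPM against 1549, 1576 and 1534 CPM, and its log2 fold change of 1.07 was 0.59 without HGC-27 SAHA 2 (edgeR adjusted p = 0.0146 and 0.0132).

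By chromosome, 24 of 37 tested microRNAs on chromosome 14 were called higher and 2 lower with all libraries (21.7% and 19.1% over all tested), and 14 and 2 without HGC-27 SAHA 2, where their median log2 fold change went from 4.59 to 1.70. On chromosome 13 0 of 18 were higher and 8 lower, 7 without that library. miR-4521, which lies outside the falling groups, was at 697, 1078 and 1091 CPM with SAHA and at 2548, 2307 and 2723 CPM with DMSO (-1.40, edgeR adjusted p = 6.61e-04). Predicted microRNAs, left out of the tests, held 4.06% ± 0.03 of the counts with SAHA and 3.80% ± 0.33 with DMSO (SD, n = 3), and these groups overlapped.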
